A study of Mus musculus with 6 samples.

Results

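The mitochondrial carriers of the Slc25a family were examined for Maf and H3K27ac in adult mouse skeletal muscle. The group holds 47 of 21827 protein-coding genes of the autosomes, X and Y, and a gene was a member where its symbol in the GENCODE annotation of GRCm38 began with Slc25a. Maf is a bZIP transcription factor of fast muscle, and H3K27ac is a histone acetylation of active promoters and enhancers. Nuclei came from gastrocnemius and quadriceps muscles of wild-type mice aged 2 months. ChIP-seq was made with an antibody against Maf in 2 samples and with one against H3K27ac in 2 samples, and 2 input samples without antibody were not used here. There was no second genotype or treatment, so the comparison is between the Slc25a genes and all protein-coding genes.

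Mitochondrial carriers sit in the inner membrane and move metabolites that cannot cross it on their own, such as ATP, phosphate, citrate, aspartate and acylcarnitines. They are encoded in the nucleus, made in the cytosol and placed in the membrane by the TIM22 import complex. In skeletal muscle, the exchange of ATP for ADP, the malate-aspartate shuttle and the entry of fatty acids as acylcarnitines all depend on members of this family.

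The Maf lists held 74 regions in replicate 1 and 5467 in replicate 2, and the H3K27ac lists held 44887 and 44987. Joining touching or overlapping regions gave 5486 Maf and 52540 H3K27ac regions. None of the 74 regions of Maf replicate 1 lay within 50 kb of a Slc25a gene, so every Maf value of a Slc25a gene below rests on replicate 2 alone and has no replicate check. The closest replicate 1 region was 138275 bp from Slc25a10, the dicarboxylate carrier gene. The lists give no read counts and the same score of 1 for each region, so the depth is unknown, and the place in the list was used as a stand-in for strength, although the lists do not state how they are sorted. H3K27ac lay within 1 kb of a start in 8 of 8 skeletal muscle marker genes and in none of the 5 liver, 4 heart and 4 brain markers. It also lay there in 4 of 4 markers each of endothelium, macrophages and fibroblasts, in 2 of 3 adipocyte markers (0 of 3 in both lists) and in 2 of 3 satellite cell markers (1 of 3 in both lists), and a mark in few nuclei cannot be told apart from a weak mark in many.

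The Maf regions that carry the findings on Slc25a genes are shown first, as they stand in the RefSeq sequence of GRCm38. The Maf regions at Slc25a35, Slc25a30 and Slc25a42 are shown because they are the only ones within 1 kb of a start of the family, each on the strand of its gene. The region 33806 bp upstream of Slc25a33 is shown because it holds the full Maf element, TGCTGACTCAGCA, on the minus strand, which is also the strand of the gene. Capitals mark TGCTGA in Slc25a35, TGACCTT in Slc25a42 and the full element in Slc25a33, and the Slc25a30 region held none of the motifs searched. Their positions are chr11:68967894-68968130 on the plus strand for Slc25a35, without the 44 bases of the region that are transcribed, and on the minus strand chr14:75787057-75787337 for Slc25a30, chr8:70212590-70212870 for Slc25a42 and chr4:149808083-149808363 for Slc25a33.
Slc25a35: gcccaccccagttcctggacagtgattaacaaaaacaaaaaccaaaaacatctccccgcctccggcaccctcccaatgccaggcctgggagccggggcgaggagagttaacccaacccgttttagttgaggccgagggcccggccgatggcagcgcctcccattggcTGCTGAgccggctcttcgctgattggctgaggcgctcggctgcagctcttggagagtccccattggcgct
Slc25a30: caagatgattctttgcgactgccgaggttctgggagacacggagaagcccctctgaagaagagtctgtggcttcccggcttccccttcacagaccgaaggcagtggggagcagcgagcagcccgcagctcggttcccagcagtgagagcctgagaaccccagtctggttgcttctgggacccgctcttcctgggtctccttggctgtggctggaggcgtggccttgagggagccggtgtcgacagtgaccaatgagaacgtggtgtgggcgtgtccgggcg
Slc25a42: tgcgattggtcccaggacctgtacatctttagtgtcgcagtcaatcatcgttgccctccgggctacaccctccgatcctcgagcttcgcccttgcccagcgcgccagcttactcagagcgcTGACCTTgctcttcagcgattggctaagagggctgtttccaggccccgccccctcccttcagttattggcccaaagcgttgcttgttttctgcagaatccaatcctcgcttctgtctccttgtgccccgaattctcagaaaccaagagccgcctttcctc
Slc25a33 upstream region: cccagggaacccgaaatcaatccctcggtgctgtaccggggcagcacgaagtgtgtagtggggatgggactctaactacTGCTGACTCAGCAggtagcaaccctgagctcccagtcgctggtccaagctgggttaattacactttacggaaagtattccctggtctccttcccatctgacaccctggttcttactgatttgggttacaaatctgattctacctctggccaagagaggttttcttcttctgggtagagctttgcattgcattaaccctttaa

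Stretches of 26 bp around TGCTGAC, the core of the Maf element, are shown from 4 further regions, because these carry the core of 7 letters in capitals. They stand at chr2:32415966-32415991 (minus strand) for Slc25a25, chr6:94520354-94520379 (plus) for Slc25a26, chr15:81336589-81336614 (plus) for Slc25a17 and chrX:36824114-36824139 (minus) for Slc25a5.
Slc25a25: gggctggttcTGCTGACctggcagac
Slc25a26: ccagcacattTGCTGACtgatgtgtg
Slc25a17: tttgtgccacTGCTGACacagcctac
Slc25a5: ctggcagaagTGCTGACcgggctcca

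A last set of 3 stretches is shown because their TGCTGA, in capitals, lies in bases that the RefSeq genome writes in lower case as repeats. They stand at chr4:149778005-149778030 (minus) for the Maf region nearest to Slc25a33, chr9:108655282-108655307 (plus) for Slc25a20 and chr10:91164721-91164746 (plus) for Slc25a3.
Slc25a33 proximal region: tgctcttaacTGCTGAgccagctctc
Slc25a20: ctcttttaatTGCTGAgtcatctctc
Slc25a3: tgctcttaaaTGCTGAgctaggtcta

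Most Slc25a genes carried H3K27ac at their start, and few had Maf near it. H3K27ac lay within 1 kb of a transcript start in 40 of 47 Slc25a genes, or 85.1% (95% Clopper-Pearson interval 71.7 to 93.8), against 58.3% of all protein-coding genes. Within 10 kb the mark was found at 43 of 47 (91.5%), against 65.6% of all genes, and within 50 kb at 47 of 47, against 78.4%. In both H3K27ac lists the mark lay within 1 kb in 37 of 47 (78.7%), against 55.2% of all genes. The intervals here cover counting error over genes or regions only, genes are not replicates, and no test of the differences was made.

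Maf lay within 1 kb of a start in 3 of 47 Slc25a genes (6.38%, interval 1.34 to 17.5), against 4.71% of all genes. Within 10 kb the count was 8 of 47 (17.0%, interval 7.65 to 30.8), against 10.2% of all genes. Within 50 kb it was 16 of 47 (34.0%, interval 20.9 to 49.3), against 28.8% of all genes. Each of these intervals holds the share of all genes. All 16 genes were among the 40 with H3K27ac at the start. Among all genes with Maf within 50 kb, 4959 of 6286 had H3K27ac within 1 kb. Among genes with the mark, Maf was found at 3 of 40 Slc25a genes (7.5%) in the 1 kb window, against 7.85% of all. The counts were 8 of 40 (20%) against 15.6% within 10 kb, and 16 of 40 (40%) against 38.9% within 50 kb.

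**Figure D1:**
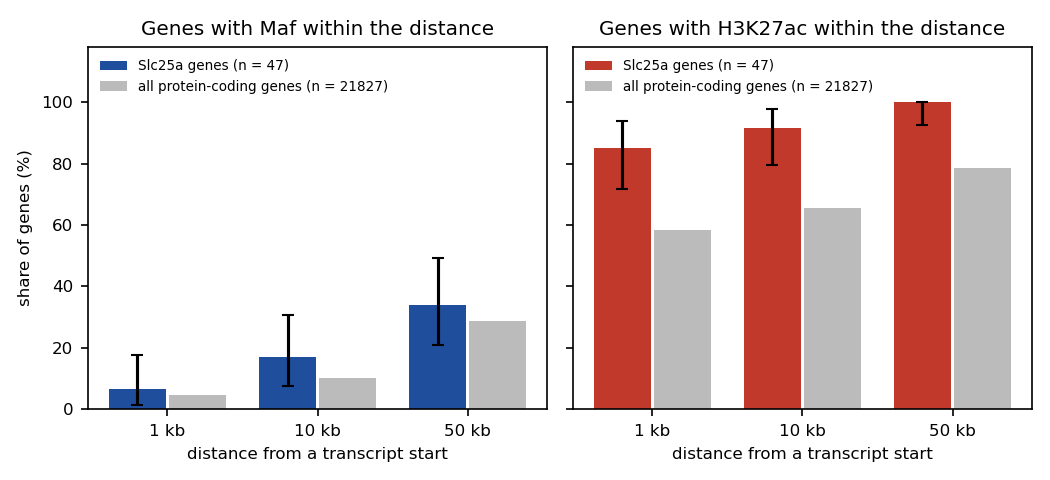
Share of genes (%, vertical axis) with a Maf region (left) or an H3K27ac region (right) within 1, 10 and 50 kb of a transcript start, for 47 Slc25a genes (coloured bars, with 95% Clopper-Pearson intervals) and all 21827 protein-coding genes (grey bars). The H3K27ac shares of the Slc25a genes are 85.1, 91.5 and 100%, and the Maf shares are 6.38, 17.0 and 34.0%, with intervals that hold the grey bars.

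The Slc25a genes ranged from a Maf region over the start to none within a megabase. The median over the 47 Slc25a genes was 104299 bp, against 124616 bp over 21644 protein-coding genes on chromosomes with a Maf region. In 24 Slc25a genes the nearest Maf region was more than 100 kb away, and the median over all genes is also beyond 100 kb. The farthest was 1983999 bp at Slc25a53, a carrier gene of unknown substrate. Of the genes on either side of each limit, Slc25a42 (285 bp) was inside 1 kb and Slc25a1 (2751 bp) outside. Slc25a11 (9307 bp) was inside 10 kb and Slc25a44 (14711 bp) outside. Slc25a3 (40537 bp) was inside 50 kb and Slc25a4 (58493 bp) outside.

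**Figure D2:**
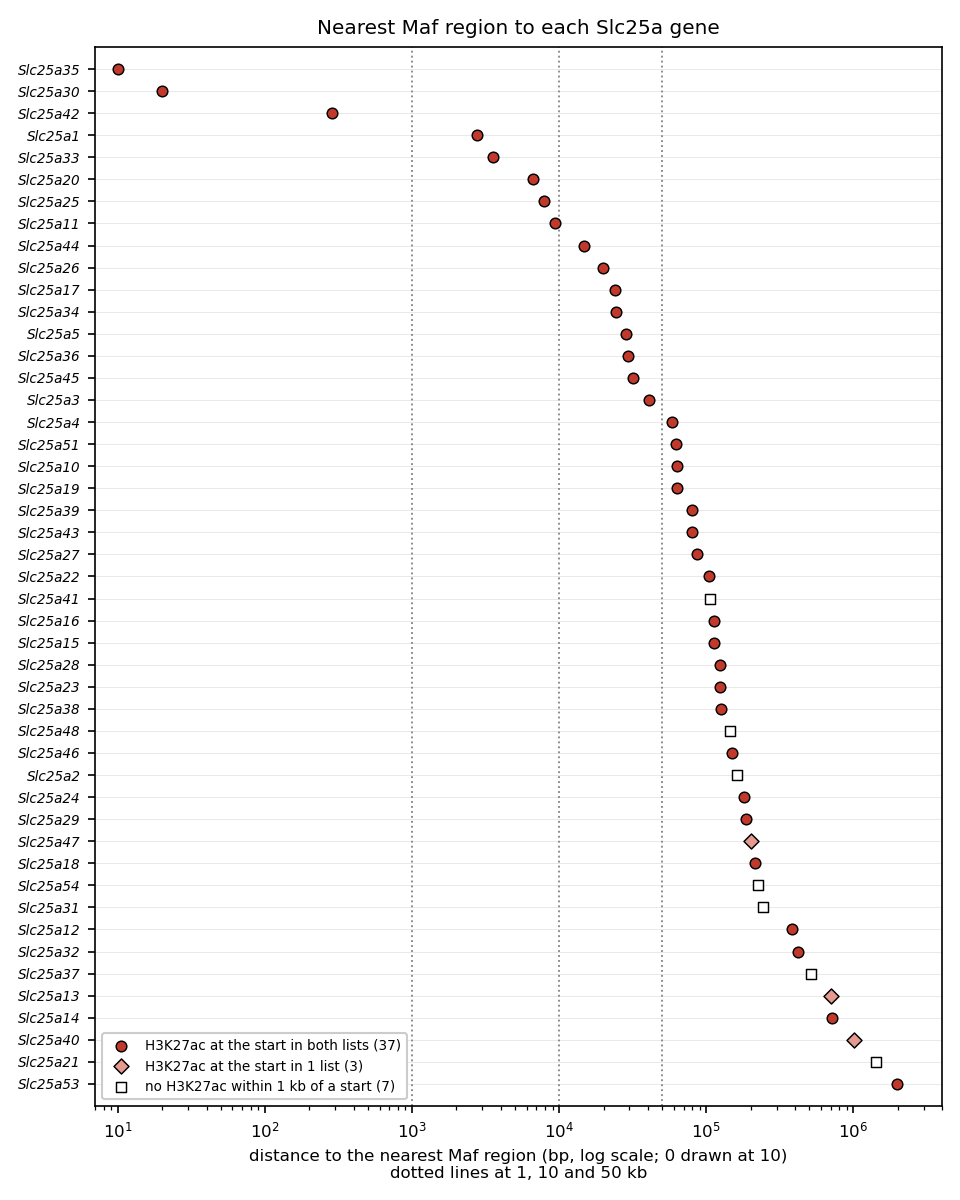
Distance from each of the 47 Slc25a genes (rows) to its nearest Maf region (bp, log scale, with the 0 of Slc25a35 drawn at 10), with filled circles for genes with H3K27ac within 1 kb of a start in both lists, diamonds for 1 list and open squares for none. The 16 genes left of the 50 kb line are all filled circles, and the 7 genes without the mark lie to the right of it. Over all genes, 4959 of 6286 with Maf within 50 kb had H3K27ac within 1 kb.

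The 3 genes with Maf at the promoter belong to different transport groups. At Slc25a35, a carrier without an agreed substrate, the Maf region of 281 bp overlapped the start, with its centre at -97 bp. It stood at place 1909 of 5467 and lay in H3K27ac of 1804 bp in replicate 1 and 1839 bp in replicate 2. Slc25a30 encodes a relative of the uncoupling proteins. Its Maf region ended 20 bp upstream of the start, at place 1092, within H3K27ac of 2436 bp in replicate 1 and 2102 bp in replicate 2. Slc25a42 encodes the carrier that brings coenzyme A into the matrix in exchange for adenine nucleotides. Its Maf region ended 285 bp upstream, at place 1061, within H3K27ac of 7461 bp in replicate 1 and 5618 bp in replicate 2. These 3 Maf regions had a GC content of 63.0, 62.6 and 56.9% in the same order of genes. In the Slc25a35 sequence shown above, TGCTGA lay 67 bp upstream of the start, and in Slc25a42 the letters TGACCTT lay 441 bp upstream.

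Between 1 and 10 kb, Maf was found at 5 further Slc25a genes. Slc25a1 encodes the citrate carrier that exports citrate for fatty acid synthesis. Its Maf region lay 2751 bp upstream (chr16:17930970-17931250), at place 4040, and held TGCTGA at 2 positions and CAGCTG, the core of many E-boxes, at 1. The H3K27ac region at the Slc25a1 start was 1554 bp long in replicate 1 and 2162 bp in replicate 2, and the Maf region overlapped a separate H3K27ac region upstream of 2079 bp after joining.

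Slc25a33 and Slc25a25 joined a Maf region with some of the longest H3K27ac regions of the family. Slc25a33 encodes a carrier of pyrimidine nucleotides. Its nearest Maf region lay 3570 bp upstream (chr4:149777847-149778127), at place 1148, inside H3K27ac that ran over the start for 7171 bp in replicate 1 and 10266 bp in replicate 2. Slc25a25 encodes a calcium-regulated carrier of ATP-Mg and phosphate. Its Maf region lay 7897 bp downstream of the nearest of 5 starts, an internal one, and 35337 bp from the 5-prime end of the gene (chr2:32415828-32416108), at place 1633, in the untranslated part of an exon of Slc25a25. The H3K27ac region there was 10363 bp long in replicate 1 and 10718 bp in replicate 2 and reached from that internal start to the Maf region in both.

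The remaining pair within 10 kb lay nearer to other genes. Slc25a20 encodes the carnitine-acylcarnitine carrier of fatty acid oxidation. Its nearest Maf region lay 6660 bp upstream (chr9:108655158-108655438) at place 5147, near the end of the list, had no H3K27ac, and was closer to a start of Arih2 (5778 bp). Slc25a11 encodes the oxoglutarate carrier of the malate-aspartate shuttle. Its Maf region lay 9307 bp upstream (chr11:70656365-70656645) at place 212, the highest of the 8, and was 557 bp from a start of Eno3, the muscle enolase gene. That Maf region lay in an H3K27ac region of 20315 bp after joining, which was separate from the one at the Slc25a11 start (2937 bp in replicate 1 and 3017 bp in replicate 2). In 6 of the 8 genes the member itself had the nearest start of a protein-coding gene. Among all genes, Gm16188, a lincRNA gene, had a start 1595 bp from the Slc25a33 region, nearer than that of Slc25a33. Gm12319, also a lincRNA gene, had a start inside the Slc25a11 region. Gm26298, a miRNA gene, had one 1430 bp from the Slc25a20 region.

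**Figure D3:**
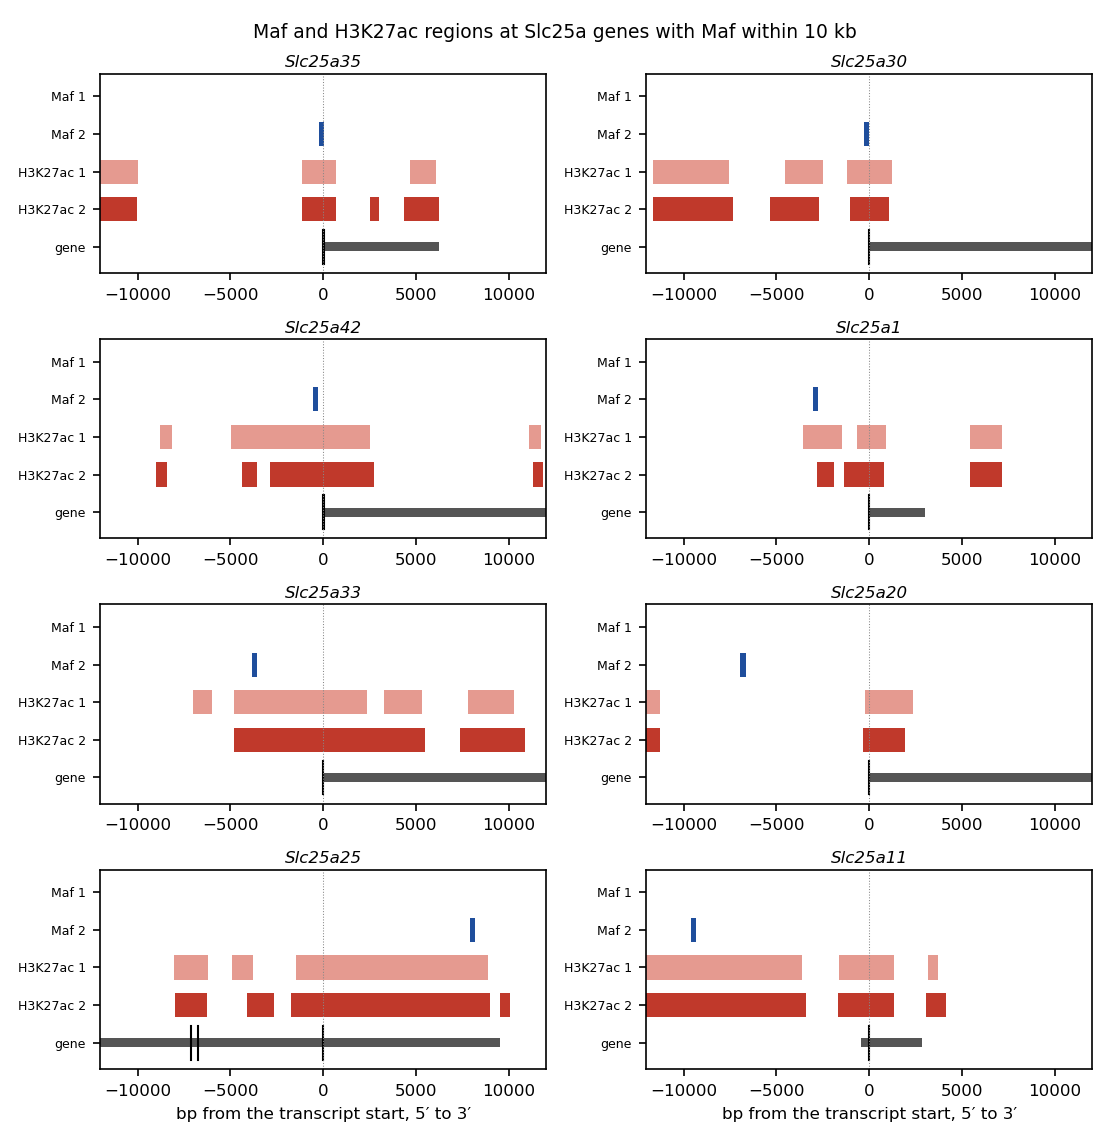
Maf and H3K27ac regions of both replicates (rows named by target and replicate number) within 12 kb of the start of the 8 Slc25a genes with Maf within 10 kb, drawn in the direction of transcription (horizontal axis, bp from the start). The bottom row shows the extent of the gene with its starts as vertical lines. The row for Maf replicate 1 is empty in all panels, and the Maf regions of replicate 2 lie in H3K27ac except at Slc25a20.

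Another 8 Slc25a genes had their nearest Maf region between 10 and 50 kb. Slc25a45, which is grouped here with the carnitine carrier, had the region with the highest place near any member, 30 of 5467. It lay 31806 bp upstream in H3K27ac of 36598 bp after joining, and the nearest start of any gene was that of Frmd8os, an antisense RNA gene, at 108 bp. Slc25a3, the phosphate carrier gene, had Maf 40537 bp upstream in an intron of Tmpo, at place 1305 and with H3K27ac. Slc25a17, a carrier of coenzyme A and related cofactors that is placed in peroxisomes, had Maf in its own intron at 24073 bp, at place 1753 and without H3K27ac. Slc25a26, the S-adenosylmethionine carrier gene, likewise had it in its own intron, at 19898 bp and place 2059, with H3K27ac.

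The other 4 were lower in the list. Slc25a36, a second pyrimidine nucleotide carrier gene, had Maf 29345 bp upstream at place 2311. Slc25a44, a carrier of branched-chain amino acids, had it at 14711 bp and place 3022, in a coding exon at a start of Pmf1. At Slc25a34, a carrier without an agreed substrate, the Maf region lay 24403 bp upstream in an intron of Plekhm2, at place 5015. Slc25a5, which encodes an ADP/ATP carrier of many tissues, had it 28380 bp downstream in an intron of C330007P06Rik. It stood at place 5347, near the end of the list. All 4 of these regions overlapped H3K27ac.

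The family had 20 Maf regions within 50 kb in all. Of these, 16 overlapped H3K27ac (80%, interval 56.3 to 94.3), against 69.1% of all Maf regions. The 4 without the mark lay near Slc25a20, at which there were 2, Slc25a17 and Slc25a33. The centre was between protein-coding genes in 11, in an intron in 7, in a coding exon in 1 and in an untranslated exon in 1. The same split over all Maf regions was not counted. The nearest protein-coding start belonged to a Slc25a gene in 13, and no such share was counted for other genes. Of the 20 regions, 5 (25%) lay within 1 kb of a start of some protein-coding gene, against 17.6% of all Maf regions. Their median place, as a percentile of the replicate 2 list counted from its top, was 33.5 near Slc25a genes (range 0.549 to 97.8).

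More than 1 Maf region within 50 kb was found at 3 members, and the share over all genes was not counted. Slc25a33 had 3, at 3570 bp, at 15718 bp in its own intron (place 3789) and at 33806 bp upstream (place 1658). The first and the second lay in H3K27ac and the third did not. Slc25a30 had a second region 20916 bp upstream, at place 1592 and with H3K27ac, which held CAGCTG and TGACCTT. Slc25a20 had a second region 35385 bp from its start, in an intron of Prkar2a, at place 4517 and without H3K27ac.

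**Figure D4:**
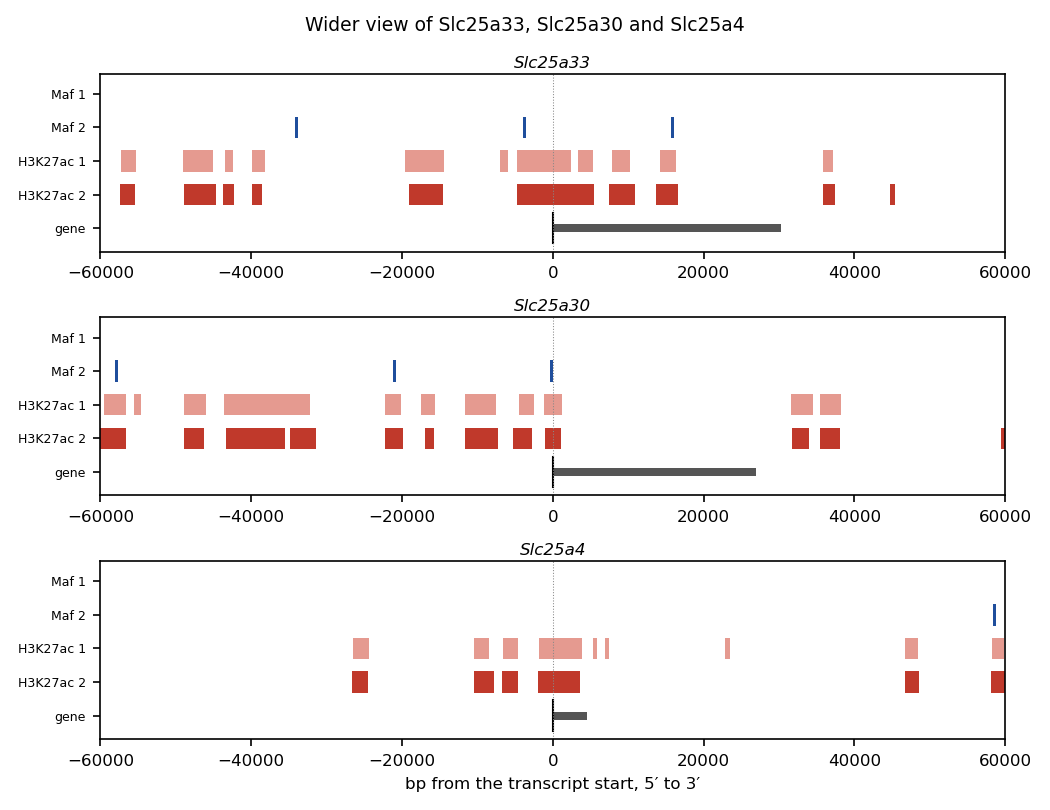
Maf and H3K27ac regions of both replicates within 60 kb of the start of Slc25a33, Slc25a30 and Slc25a4 in the direction of transcription (horizontal axis, bp from the start), with the gene extent in the bottom row. Slc25a33 has 3 Maf regions within 50 kb and Slc25a30 has 2, all from replicate 2, while Slc25a4 has none and its nearest lies 58493 bp away.

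The letters of the Maf element were as frequent near Slc25a genes as elsewhere within counting error. Both strands were searched, and every TGCTGAC match is also one of the shorter core. The shorter core TGCTGA was in 11 of 20 Maf regions (55%, interval 31.5 to 76.9), against 50.8% of all Maf regions. TGCTGAC was in 5 of 20 (25%, interval 8.66 to 49.1), against 22.7%. Besides the 4 genes with the stretches above, the fifth was the upstream region of Slc25a33. At Slc25a17 and Slc25a26 the core lay 2 and 3 bp from the centre of the region, at Slc25a25 10 bp and at Slc25a5 45 bp. A match to these letters does not show a site in use.

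The full element without mismatch was in 1 of 20 regions near Slc25a genes (5%, interval 0.127 to 24.9), against 0.182% of all Maf regions, or 10 of 5485. That region is the one 33806 bp upstream of Slc25a33, and its element stands at chr4:149808272-149808284 on the minus strand. Because the element is a near palindrome, TGCTGA is read there on both strands. The element also contains TGACTCA, the AP-1 motif. TGACTCA was in 2 of 20 Maf regions near Slc25a genes (10%, interval 1.23 to 31.7), against 11.5% of all Maf regions. The other of the 2 was the region 6660 bp upstream of Slc25a20. With up to 2 mismatches, the full Maf element was in 5 of 20 (25%, interval 8.66 to 49.1), against 12.5% of all Maf regions.

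In 3 of the 11 regions with TGCTGA near Slc25a genes, all matches lay in bases marked as repeats (27.3%, interval 6.02 to 61.0), against 6.82% of all Maf regions with TGCTGA. These are the proximal region of Slc25a33 and the regions of Slc25a20 and Slc25a3 whose stretches are shown above. The regions of Slc25a33 and Slc25a20 shared a run of 15 bp, read on opposite strands of the genome, the longest run in common between any 2 Maf regions within 10 kb of these genes. More than 50% of the bases were marked as repeats in 1 of 20 regions near Slc25a genes (5%), that of Slc25a20, against 4.92% of all Maf regions. Whether reads from repeat copies contributed to these regions was not tested.

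H3K27ac regions at the starts of Slc25a genes were mostly of ordinary length and similar in both replicates. The joined region at the start had a median of 2346.5 bp in 40 Slc25a genes (range 501 to 10718), against 2217 bp in 12735 protein-coding genes with the mark. By replicate, the median was 2396 bp in replicate 1 (39 genes) and 2220.5 bp in replicate 2 (38 genes). In the 37 genes marked in both, the ratio of replicate 2 to replicate 1 had a median of 1.02 (range 0.645 to 3.07), with 22 longer in replicate 2 and 15 longer in replicate 1. For Slc25a22, the longer of 2 regions in replicate 2 entered this ratio. The region covered a start in 38 of the 40. The joined region had a median of 2863.5 bp in the 8 Slc25a genes with Maf within 10 kb and 2068.5 bp in the 32 without. The values over all genes with the mark were 3094 bp for 1984 genes with Maf and 2118 bp for 10751 without.

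**Figure D5:**
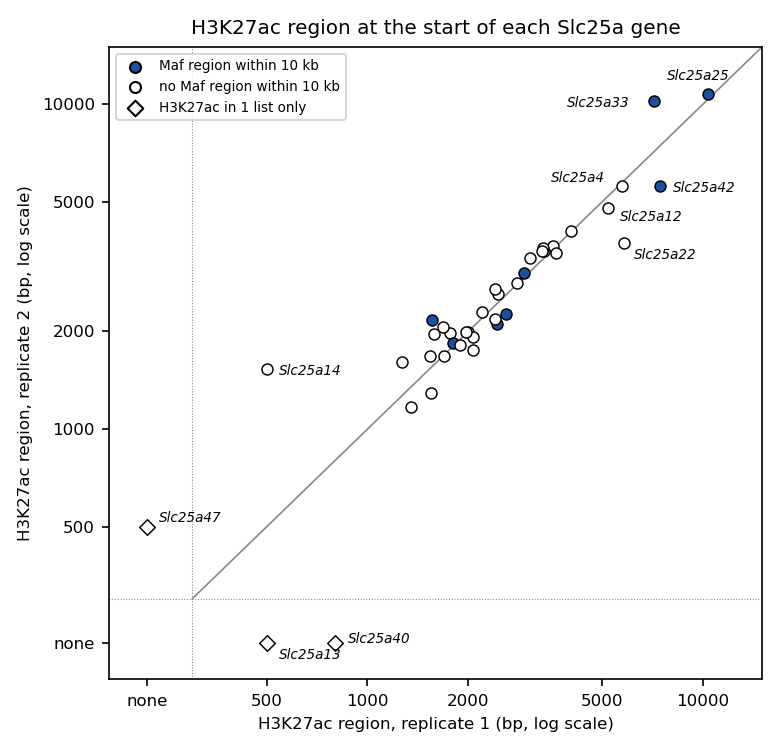
Length of the H3K27ac region within 1 kb of the start of each Slc25a gene in replicate 1 (horizontal) and replicate 2 (vertical, both in bp on log scales), with blue points for genes with Maf within 10 kb, diamonds for genes marked in 1 list and the line of equal length in grey. Most points lie near the line, and Slc25a14 (501 and 1536 bp) and Slc25a22 (5811 and 3746 bp) lie away from it.

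The carriers that exchange ATP, ADP and phosphate differed among themselves. Slc25a4, the ADP/ATP carrier of muscle and heart, had one of the longest regions, 5718 bp in replicate 1 and 5596 bp in replicate 2, which reached from -1864 to 3853 bp around the start in replicate 1. It had no Maf region within 50 kb. Slc25a5, its more widely used paralog, had 2455 and 2610 bp, and Slc25a3, the phosphate carrier, had 2790 and 2813 bp in replicates 1 and 2. Slc25a31, the ADP/ATP carrier of the testis, had no H3K27ac within 1 kb, and the nearest region, in the replicate 2 list only, lay 2792 bp away. Of the ATP-Mg and phosphate carriers, 3 of 5 were marked at the start, a share close to the 58.3% of all genes. The longest H3K27ac region of the family was at Slc25a25, over an internal start. The other 4 starts of Slc25a25, with the 5-prime end among them, lay in shorter regions of 2538 or 1872 bp in replicate 1 and of 2641 or 1724 bp in replicate 2. In the same group Slc25a41 and Slc25a54 were unmarked, with the nearest H3K27ac at 8598 and 28026 bp.

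The aspartate and glutamate carriers had H3K27ac at the start in 4 of 4 genes, against 58.3% of all genes. In both lists the count was 3 of 4, against 55.2% of all genes. Slc25a12, the aspartate-glutamate carrier of muscle and brain, had H3K27ac of 5197 bp in replicate 1 and 4789 bp in replicate 2, and its nearest Maf region lay 380907 bp away. Slc25a13, its counterpart in liver, had 501 bp in replicate 1 and none in replicate 2. Slc25a22, a glutamate carrier, had 5811 bp in replicate 1, while replicate 2 had 2 regions over its starts, one of 1427 bp over 3 starts with the 5-prime end among them and one of 3746 bp over an internal start. Slc25a18, the other glutamate carrier, had 1344 and 1166 bp, upstream of the start and not over it. None of these 4 had Maf within 50 kb, where 28.8% of all genes had it, and 4 genes are too few to read a difference. Among the 5 carriers of basic and other amino acids, 4 were marked at the start in both lists, against 55.2% of all genes. Slc25a2, an ornithine carrier in human, was unmarked with the nearest H3K27ac at 4628 bp. Of these 5, Slc25a44 had Maf within 50 kb.

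Among the di- and tricarboxylate carriers, 3 of 4 were marked at the start in both lists, against 55.2% of all genes. The exception was Slc25a21, the oxodicarboxylate carrier, with no H3K27ac within 10 kb (nearest 16847 bp) and its nearest Maf region at 1423800 bp. Of the 4 genes grouped as carnitine and related, Slc25a20 (2590 bp in replicate 1 and 2262 bp in replicate 2) and Slc25a45 (1684 and 2066 bp) were marked in both lists. Slc25a47, a gene known from liver, had 2 regions within 1 kb in replicate 2 only, with 501 bp for the one over the start. Slc25a48, linked to choline, had none within 10 kb (nearest 33554 bp).

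All 9 nucleotide and cofactor carriers were marked at the start in both lists, against 55.2% of all genes. Of the 9, 5 had Maf within 50 kb, against 28.8% of all genes and 38.9% of those with H3K27ac at the start. With 9 genes this is the largest group, and nothing particular to it can be read from the count. The 5 were Slc25a17, Slc25a26, Slc25a33, Slc25a36 and Slc25a42. Of the 4 iron and glutathione carriers none had Maf within 50 kb, which on 4 genes cannot be set against the 28.8% of all genes. Slc25a28, mitoferrin 2, was marked with 3333 bp in replicate 1 and 3615 bp in replicate 2. Slc25a37, mitoferrin 1, the iron carrier of developing red cells, was unmarked, with the nearest H3K27ac at 33768 bp. Slc25a40, which is related to the glutathione carrier Slc25a39, had 801 bp in replicate 1 only, in a region that also covered a start of Dbf4. The 3 carriers related to the uncoupling proteins were all marked in both lists, and Slc25a14 had one of the shorter regions, with 501 bp in replicate 1 and 1536 bp in replicate 2. All 5 genes without an assigned group were marked in both lists. The share of all genes was 55.2%, and groups of this size are too small to read a difference.

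Neighbouring starts bear on some of these values. In 6 Slc25a genes the H3K27ac region at the start also covered the start of another gene, namely Rnf167 at Slc25a11, Crb3 at Slc25a23, Cyp39a1 at Slc25a27, Dcaf13 at Slc25a32, Dbf4 at Slc25a40 and B930094E09Rik at Slc25a46. There the mark cannot be assigned to one gene. The share of such shared regions over all genes was not counted. Of 4 pairs of family members that lie next to each other, 3 differed in the mark at their protein-coding transcript starts in at least 1 list. How often neighbouring genes outside the family differ was not counted. The fourth was Slc25a43 and Slc25a5, which lie 51992 bp apart and were both marked in both lists. Slc25a41 (none) lies 18209 bp from Slc25a23 (3351 bp in replicate 1 and 3524 bp in replicate 2). Slc25a54 (none) lies 42680 bp from Slc25a24 (2060 and 1756 bp). Slc25a47 was unmarked in replicate 1 and had 2 regions within 1 kb in replicate 2, with 501 bp for the one over the start. Its start lies 15246 bp from that of Slc25a29, an amino acid carrier with 3313 and 3526 bp. The annotated Slc25a47 gene begins at chr12:108836046, inside the H3K27ac region of Slc25a29.

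Genes around the family were read for context. Of 5 carrier-related genes with other symbols, 4 had H3K27ac at the start and 1 had Maf within 10 kb. That gene was Ucp3, the muscle uncoupling protein, with Maf 1819 bp from its start at place 177, while Ucp1, the uncoupling protein of brown fat, had no H3K27ac within 10 kb. The share of all genes with H3K27ac within 1 kb was 58.3%. All 10 genes listed for the import of carriers, with Tomm genes of the outer membrane among them, were marked at the start. Of these, Agk had Maf within 10 kb. All 18 other mitochondrial transporter genes were marked, and 4 had Maf within 10 kb, namely Vdac1, Sfxn2, Sfxn3 and Letm1. The share of all genes with Maf within 10 kb was 10.2%, and these lists are too short to be set against either share. Skeletal muscle markers had Maf within 10 kb in 7 of 8 genes. The paper names Ckm, Myh4 and Atp2a1 among the loci most strongly bound by Maf in these data. The skeletal muscle list is therefore no independent comparison. Fibroblast markers had Maf within 10 kb in 1 of 4 genes and adipocyte markers in 1 of 3, and the other marker lists had none.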

How the data were processed

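ChIP-seq libraries from 2 Maf and 2 H3K27ac samples were used, and the 2 input samples were not analysed here. Adaptors were removed by the authors with Trim Galore, and reads were placed on GRCm38 with Bowtie2 (2.3.2 in the submitters' processing notes, which also name Picard 2.10.3, bcl2fastq 2.17, FastQC and HOMER). They deposited 1 list of regions per sample. Star is named beside Bowtie2 in the methods. A false discovery rate is given in the study for the number of Maf regions, and whether it applies to each list, the other settings of the peak caller and the use of the input are not given in the sources used here. The deposited score column is 1 for every region, and the lists hold no read counts, so depth is unknown and no test between samples was possible. The labels call the samples biological replicates, and chromatin was split between both antibodies.

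Regions of a target that touched or overlapped were joined, and where several lay equally near the starts of a gene, the longest gave the length. Distances ran from the edge of a region to the nearest of 41433 transcript starts of protein-coding genes in the GENCODE M21 basic set, within 1, 10 and 50 kb, and 1 shared base counted as overlap. For genes of any type, the distance ran to the 5-prime end of each gene, and genes of the GENCODE type TEC were left out. Exact binomial (Clopper-Pearson) intervals are at 95%. The members, gene lists, transport groups and motifs were chosen with earlier results of these data known. Named genes are every Slc25a gene with Maf within 10 kb, the 8 highest in the list at 10 to 50 kb, those without H3K27ac within 10 kb, those marked in 1 list, the 5 longest and 5 shortest H3K27ac regions, and Slc25a3, Slc25a4, Slc25a11, Slc25a12 and Slc25a20 whatever their values. Other genes named (such as Slc25a2, Slc25a31 and Slc25a41) were chosen after their values were seen. The upper part of each list, other definitions of start, distance and overlap, and leaving out each replicate were tried as alternatives. Distances, joins, overlaps and motif searches were tested on simulated data. Sequences are from the RefSeq GRCm38 genome. Python 3.11.15, numpy 2.4.6, SciPy 1.17.1 and matplotlib 3.10.9 were used.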

Additional observations from a re-analysis of the deposited data

How the results depend on the processing

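Of 61 alternative values for 10 results, 11 moved by the limits set for counts, shares and medians. The limits are wide, and among the other 50 are 11 Slc25a genes with Maf within 50 kb in the upper part of each list, against 16, and a TGCTGAC share of 12.5% within 10 kb, against 25%. All Maf counts rest on replicate 2. Leaving out each replicate gave 0 to 3 Slc25a genes with Maf within 1 kb, 0 to 8 within 10 kb and 0 to 16 within 50 kb, and regions called in both Maf replicates gave 0 in each window. By construction, the 74 regions of replicate 1 leave few to count. The median distance to Maf ranged from 104299 to 15535116 bp over the same omissions. With the upper part of each list the median distance was 214000 bp, against 104299 bp. The spread between the Maf replicates sets no useful limit for this median. Maf within 50 kb was found at 10 Slc25a genes when each region was given only to the gene with the nearest start. The H3K27ac counts within 1, 10 and 50 kb were 34 to 40, 37 to 43 and 43 to 47 genes under the alternatives run. The median H3K27ac length ranged from 2220.5 to 2396 bp when a replicate was left out, and was 2667 bp when regions up to 1 kb apart were joined. The share of Maf regions with the shorter core TGCTGA was 55%, against 25% with TGCTGAC. Without Maf replicate 2 there was no region to give a share with H3K27ac or TGCTGAC. No paired analysis was possible because these results come from no test. Depth is unknown and limits what can be said of genes without a region.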

Other observations

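Promoters of 300 bp in the RefSeq table for GRCm38 were matched for 36 of 47 Slc25a genes, with 46 promoters. The observed over expected CpG ratio had a median of 0.612 over 41 promoters of 32 Slc25a genes with H3K27ac within 1 kb. It was 0.550 over 5 promoters of 4 genes without. The mark was read per gene, so a promoter could count as marked through another start of its gene, as 1 of Slc25a53 did. Over the promoters of all matched protein-coding genes the medians were 0.746 with the mark and 0.238 without. No test was made on the 4 genes. TGCTGA was in 5 of 46 Slc25a promoters (10.9%), namely those of Slc25a5, Slc25a16, Slc25a21, Slc25a34 and Slc25a40. The share was 19.5% over 32851 promoters of 27025 genes, a set not limited to the matched protein-coding genes. Its median GC content was 52.7%, against 59.3% in the Slc25a promoters. None of the 5 Slc25a genes with TGCTGA had Maf within 10 kb, where 10.2% of all genes had it. A difference cannot be read from 5 genes. Slc25a35, with TGCTGA in its Maf region 67 bp upstream of the start, was not among the 36 matched genes. TGCTGAC was in 1 of 46 (2.17%), that of Slc25a40, against 4.67% of all.

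Of the 47 Slc25a genes, 28 had 1 transcript start, and the median was 1 start, against 2 over all protein-coding genes. Taking only the 5-prime end of each gene gave 7 Slc25a genes with Maf within 10 kb.

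H3K27ac bases within 10 kb of a start had a median of 2402 bp in replicate 1 and 2291 bp in replicate 2 over the 47 genes. The highest sums were at Slc25a25, with 20269 and 22509 bp, followed by Slc25a33 with 12484 and 12885 bp. Slc25a4, with 10323 and 9891 bp, and Slc25a11, with 9809 and 10671 bp, came next and changed places between the replicates.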
